A study of Mus musculus with 10 samples.

Results

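The nerve sheath and glial genes Mbp, Pmp22, Ngfr, Nes and Gfap were followed across the 5 cell populations that were sorted from mouse backskin and hybridised to MOE430A arrays. All probe-sets that the array annotation assigns to these 5 genes were taken, whatever their signal, which gave 17 of the 22626 probe-sets other than controls (8 for Mbp, 1 for Pmp22, 3 for Ngfr, 3 for Nes and 2 for Gfap). Each population was measured on 2 arrays. All cells came from mice at postnatal day 4 that carried 2 transgenes, K14-H2BGFP, which puts green fluorescence into the nuclei of cells with an active keratin 14 promoter, and Lef1-RFP, in which a fragment of the human Lef1 promoter drives red fluorescence. High RFP together with CD117 on the surface defined the melanocytes (Mc). The dermal papilla cells (DP) were sorted as RFP high and negative for GFP, CD34, CD45 and CD117. The dermal fraction (DF) was negative for both fluorescent proteins and for CD34, CD45 and CD117, and was described as enriched in fibroblasts. The matrix (Mx) was RFP negative with low GFP, and the outer root sheath (ORS) was RFP negative with high GFP. No gate selected or removed Schwann cells by a marker of their own, and the skins of 5 mice were pooled for a sort.

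Schwann cells are the glia of peripheral nerves and arise from the neural crest, as melanocytes do. Those that myelinate wrap an axon in a compacted membrane that holds myelin basic protein, the product of Mbp, and peripheral myelin protein 22, the product of Pmp22. Those that do not myelinate, and immature Schwann cells, are known for the low-affinity neurotrophin receptor p75, the product of Ngfr. Nestin (Nes) and glial fibrillary acidic protein (Gfap) are intermediate filament proteins, the first known from neural progenitors and also from vessel walls and follicle cells, the second from astrocytes and non-myelinating Schwann cells. In skin, nerve endings reach the follicle and run through the dermis.

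The deposited signals had medians between 49.9 (Mx replicate 1) and 90.9 (DP replicate 2) over the 10 arrays, and 5018 to 6650 probe-sets reached a signal of 200 on an array. A probe-set was tested if both arrays of at least 1 population reached 200, which 8054 probe-sets did, among them 8 of the 17 (4 for Mbp, 1 for Pmp22, 1 for Ngfr and 2 for Nes). The 4 Mbp probe-sets and Nes 1418289_at passed through DF alone, Ngfr 1454903_at through DP alone, and Pmp22 1417133_at and Nes 1449022_at through DP and DF. None passed through Mc, Mx or ORS, so higher signal in DP or DF than in these populations was built into the selection. For those that passed through DF alone, signal in DF above DP was favoured in the same way. All 17 probe-sets were therefore also fitted with no filter. Differences are given as log2 of (signal + 50) ± standard error from 1 limma fit of all 10 arrays, with p-values adjusted over all probe-sets tested, and they understate the change of low signals. With 2 arrays against 2 no permutation can reach a p of 0.05, so the calls depend on the error that limma estimates across populations and moderates across probe-sets.

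Of the myelin genes, Mbp gave the plainest separation of the populations, with high signal in DF, an intermediate signal in DP and low signal in Mc and in both epithelial populations. At its brightest probe-set, 1433532_a_at, the signal was 23.8 and 22.1 in Mc, 169.6 and 442.8 in DP, 2053.9 and 1490.5 in DF, 9.9 and 9.8 in Mx, and 2.6 and 22.8 in ORS. No population overlapped with DF or with DP, whereas the arrays of Mc, Mx and ORS all lay at 23.8 or less, with ORS overlapping both Mc and Mx. The mean in DP was 306.2 ± 193 and that in DF 1772 ± 398 (SD, n = 2 each). In sorted bulk cells, fewer cells of a type and less RNA per cell cannot be told apart.

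Relative to DF, the Mbp difference at this probe-set was -4.63 ± 0.31 in Mc (adjusted p = 1.51e-07) and -2.45 ± 0.31 in DP (adjusted p = 0.000108). Mc also lay below DP, by -2.17 ± 0.31 (adjusted p = 0.000162). This probe-set passed the filter through DF alone. With no filter the adjusted p-values were 0.000103 for Mc over DF, 0.00492 for DP over DF and 0.0056 for Mc over DP. DP was 2.46 ± 0.31 above Mx (adjusted p = 3.13e-05) and 2.41 ± 0.31 above ORS (adjusted p = 4.96e-05), so that a signal of this myelin gene above the epithelial one was measured in DP as well as in DF. Between Mc and the epithelial populations the differences were 0.29 over Mx (95% interval -0.40 to 0.97) and 0.24 over ORS (95% interval -0.44 to 0.92), and neither passed the test.

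**Figure D1:**
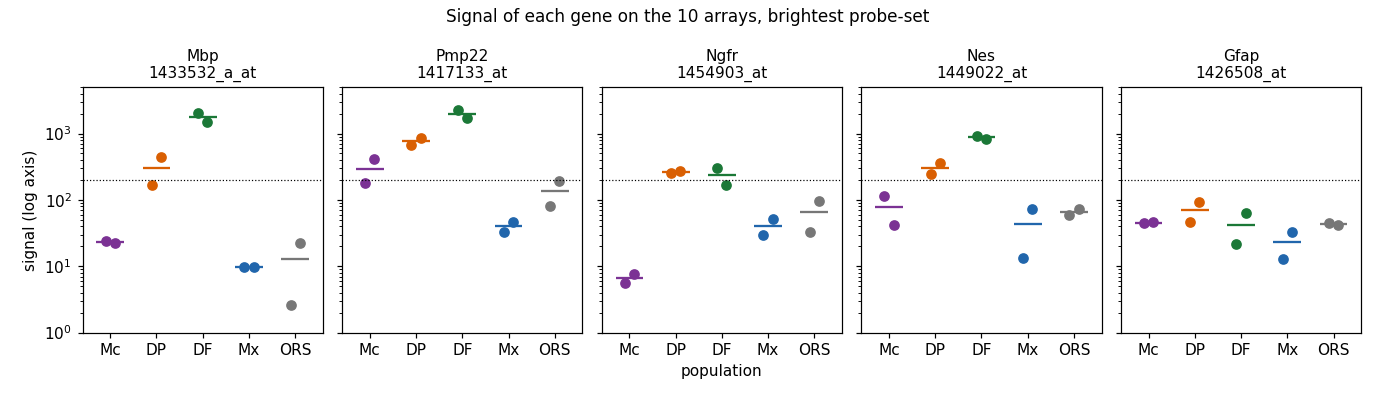
Signal (log axis) of the brightest probe-set of Mbp, Pmp22, Ngfr, Nes and Gfap on each of the 10 arrays, with populations along the horizontal axis, 1 point per array, a bar at the mean of the 2 arrays and a dotted line at a signal of 200. Both DF arrays lie above all others for Mbp, Pmp22 and Nes, DP and DF overlap for Ngfr, and no array reaches 200 for Gfap.

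The 8 Mbp probe-sets did not all report the same. Both DF arrays lay above all other arrays in 7 of the 8. Beside the brightest one, 1419646_a_at gave 17.8 and 39.5 in Mc, 99.5 and 216.7 in DP, and 1086.5 and 651.5 in DF, with 6.6 to 22.8 in the epithelium. For 1456228_x_at the signal was 7.0 and 14.0 in Mc, 115.3 and 207.9 in DP, and 1110.6 and 612.5 in DF. For 1436201_x_at it was 3.2 and 3.7 in Mc, 69.8 and 220.0 in DP, and 963.9 and 379.7 in DF. In all of these the order was DF, then DP, then the other 3 populations. Over the 10 arrays the signals of these 4 probe-sets were correlated with each other at Pearson's r between 0.987 and 0.995, as a description of probe-sets that share 1 gene and the same libraries. The suffix _x_at marks probes that also match other sequences, so the 2 probe-sets that carry it are less certain as measures of Mbp.

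The other 4 Mbp probe-sets did not reach 200 in both arrays of any population. Among them 1454651_x_at gave 29.9 and 60.9 in DP and 287.4 and 179.8 in DF, and 1451961_a_at gave 28.9 and 75.5 in DP and 263.9 and 178.5 in DF. A low probe-set, 1425263_a_at, reached 98.2 and 69.2 in DF. The exception was 1425264_s_at, whose 10 signals lay between 10.2 and 41.4 and were not highest in DF. The suffix _a_at marks alternative transcripts of 1 gene, but which Mbp transcripts each probe-set reads was not resolved here.

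**Figure D2:**
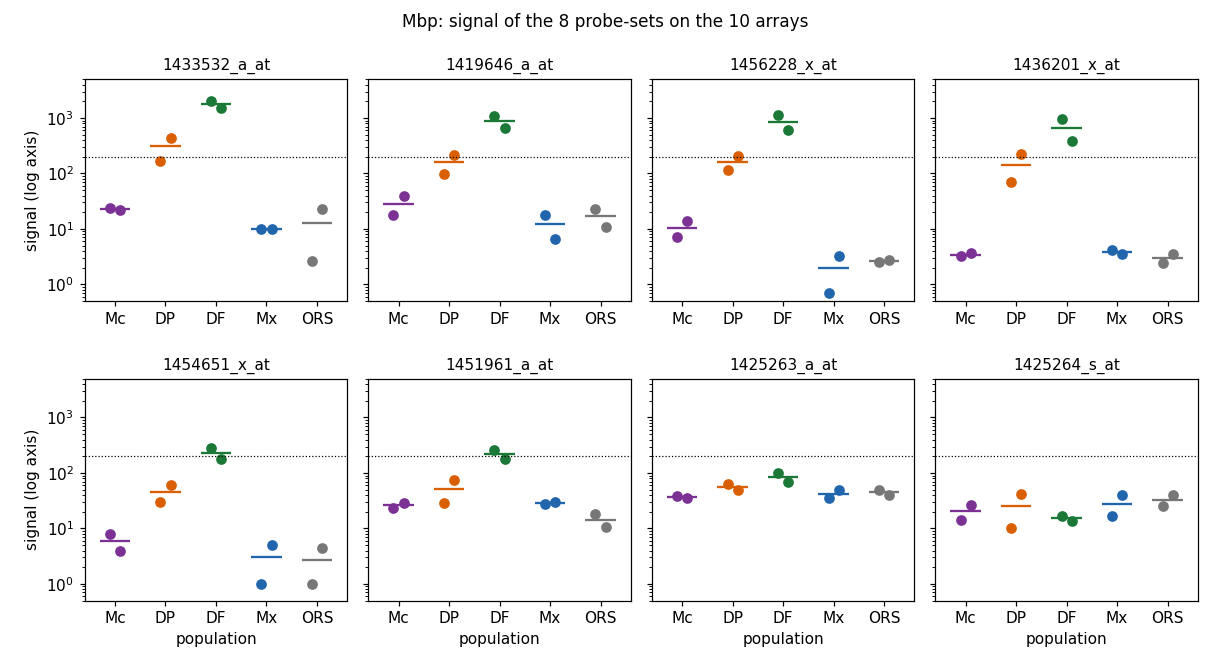
Signal (log axis) of the 8 Mbp probe-sets on each of the 10 arrays, ordered by their mean in DF, with populations along the horizontal axis, 1 point per array, a bar at the mean of the 2 arrays and a dotted line at a signal of 200. In every panel but that of 1425264_s_at both DF arrays lie above the other 8 arrays.

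The replicates of DP and DF were apart for Mbp. DP replicate 2 was 1.80 to 3.15 times DP replicate 1 over the 4 tested Mbp probe-sets, and DF replicate 1 was 1.38 to 2.54 times DF replicate 2. Replicate 1 and replicate 2 of Mc, DP and DF were on 2 chip lots, so replicate and lot cannot be told apart in them, and the order of DF, DP and Mc held within each lot. At 1433532_a_at DP lay below DF by -3.26 in the first lot and by -1.64 in the second, and Mc lay below DP by -1.57 and -2.77 in the same lots. Without DP replicate 2, the calls of 1419646_a_at (adjusted p = 0.0591) and 1436201_x_at (adjusted p = 0.0568) for Mc over DP were lost, and without DP replicate 1 that of 1436201_x_at for DP over DF (adjusted p = 0.0527). For 1433532_a_at and 1456228_x_at no array left out ended a call between Mc, DP and DF.

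Pmp22, a membrane protein of compact myelin that many other cell types also express, followed the same order with smaller differences. Its probe-set 1417133_at gave 177.4 and 409.0 in Mc, 682.2 and 849.8 in DP, 2240.9 and 1737.5 in DF, 32.8 and 47.0 in Mx, and 80.8 and 195.5 in ORS. DF, DP and the remaining populations did not overlap, while Mc replicate 1 lay below ORS replicate 2. In Mc the signal was -2.65 ± 0.33 relative to DF (adjusted p = 3.45e-05) and -1.33 ± 0.33 relative to DP (adjusted p = 0.00885), and DP was -1.32 ± 0.33 relative to DF (adjusted p = 0.0143). The difference of Mc over DP lost its call with no filter (adjusted p = 0.0565), without DP replicate 2 (0.0784) and without Mc replicate 1 (0.120). That of DP over DF lost its call with a pseudocount of 1 (adjusted p = 0.0732), with no filter (0.0797), without DF replicate 1 (0.108) and without DP replicate 1 (0.112).

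For Pmp22 the difference of Mc over Mx passed the test, at 1.85 ± 0.33 (adjusted p = 0.000603). Mc over ORS was 0.85 ± 0.33 (adjusted p = 0.0592, 95% interval 0.12 to 1.58) and missed the threshold, as did Mx over ORS (adjusted p = 0.0540, 95% interval -1.73 to -0.27). DF exceeded Mx by 4.50 ± 0.33 (adjusted p = 2.49e-07) and ORS by 3.50 ± 0.33 (adjusted p = 3.56e-06).

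The gene for Pmp22 lies at chr11:63128982-63159547 (GRCm38) and has 4 windows in the RefSeq table, 1 for each start. Windows from 250 bases before to 50 after a start were read on the gene's strand from the RefSeq table for GRCm38, and were searched on both strands for GGGCGG (the GC box), TATAAA (the TATA box), ACAAAG (a SOX core) and GCGNGGGCG (an EGR core, which shares letters with the GC box). The first and the last of the 4 windows are shown because they differ in makeup while the single probe-set cannot tell the starts apart. Capitals mark GC boxes, on either strand.
Pmp22 first start, chr11:63128732-63129031, plus strand: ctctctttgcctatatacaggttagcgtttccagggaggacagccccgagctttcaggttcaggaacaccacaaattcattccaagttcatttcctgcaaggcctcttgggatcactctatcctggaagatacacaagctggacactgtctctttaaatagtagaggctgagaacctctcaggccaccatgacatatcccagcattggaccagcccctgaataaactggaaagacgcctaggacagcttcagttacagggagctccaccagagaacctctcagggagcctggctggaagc
Pmp22 last start, chr11:63132553-63132852, plus strand: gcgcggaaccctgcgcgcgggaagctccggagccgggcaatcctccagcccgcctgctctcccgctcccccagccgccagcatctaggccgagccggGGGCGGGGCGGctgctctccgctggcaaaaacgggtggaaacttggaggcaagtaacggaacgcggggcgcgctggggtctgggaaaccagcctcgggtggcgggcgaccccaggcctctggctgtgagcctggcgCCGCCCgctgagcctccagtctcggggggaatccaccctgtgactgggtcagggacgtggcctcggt
The first window held none of the 4 motifs and had 50.7% G and C. The last held 3 GC boxes and had 72.3% G and C, against a median of 52.7% over the 32851 windows of the table.

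Ngfr differed from the myelin genes in that DP and DF were alike in level. This neurotrophin receptor marks neural crest cells and Schwann cells, and in mouse skin it is also known from follicle cells. Its probe-set 1454903_at gave 5.6 and 7.7 in Mc, 254.1 and 274.5 in DP, 299.3 and 167.2 in DF, 29.5 and 51.0 in Mx, and 32.5 and 97.7 in ORS. The DP arrays lay between the 2 DF arrays, and the Mc arrays lay below all the others. DP over DF was 0.19 ± 0.28 (adjusted p = 0.710, 95% interval -0.42 to 0.80), and without DF replicate 2 it was -0.15 (adjusted p = 0.818), so the order of these 2 populations was not resolved.

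In Mc the Ngfr signal was -2.47 ± 0.28 relative to DP (adjusted p = 2.1e-05) and -2.28 ± 0.28 relative to DF (adjusted p = 2.78e-05), and within the chip lots Mc over DP was -2.45 and -2.49. It also lay below ORS by -0.96 ± 0.28 (adjusted p = 0.0154), a call that was lost with no filter (adjusted p = 0.0637), without ORS replicate 2 (0.177), without Mc replicate 1 (0.0687) and without Mc replicate 2 (0.0603). DP exceeded Mx by 1.81 ± 0.28 (adjusted p = 0.00016) and ORS by 1.51 ± 0.28 (adjusted p = 0.000909). This probe-set passed the filter through DP alone. With no filter the adjusted p-values were 0.00153 for Mc over DP, 0.00151 for Mc over DF, 0.00343 for DP over Mx and 0.0107 for DP over ORS. Of the other 2 probe-sets, 1450177_at reached at most 59.9, in DP replicate 2, and 1421241_at at most 5.3, so 1 probe-set of 3 passed the filter. With no filter, 1450177_at was also lower in Mc than in DP (-0.81 ± 0.19, adjusted p = 0.0261).

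Ngfr lies at chr11:95568818-95587698 on the minus strand. Its window is shown because it carried the most GC boxes of the windows read for these genes, marked in capitals.
Ngfr, chr11:95587649-95587948, minus strand: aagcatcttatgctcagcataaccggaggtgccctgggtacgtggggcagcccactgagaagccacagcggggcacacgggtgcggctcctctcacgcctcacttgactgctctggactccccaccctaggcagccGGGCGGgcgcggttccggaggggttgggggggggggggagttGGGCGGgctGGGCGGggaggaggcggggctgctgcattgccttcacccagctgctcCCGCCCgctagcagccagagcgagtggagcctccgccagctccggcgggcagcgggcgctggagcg
It held 4 GC boxes, a motif found in 35.7% of all windows, and 71.7% G and C.

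Nes, for the intermediate filament protein nestin, was again highest in DF. Probe-set 1449022_at gave 116.0 and 42.5 in Mc, 245.3 and 360.3 in DP, 930.5 and 836.6 in DF, 13.3 and 73.9 in Mx, and 59.4 and 73.2 in ORS. DF and DP stood apart from each other and from the rest, and Mc overlapped with both epithelial populations. Relative to DF the difference was -2.91 ± 0.32 in Mc (adjusted p = 1.06e-05) and -1.42 ± 0.32 in DP (adjusted p = 0.00727), and Mc over DP was -1.49 ± 0.32 (adjusted p = 0.00342). The call of DP over DF was lost with a pseudocount of 1 (adjusted p = 0.154), with no filter (0.0527), without DF replicate 1 (0.0517) and without DP replicate 1 (0.0861), and that of Mc over DP without Mc replicate 2 (0.0515).

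The other tested Nes probe-set, 1418289_at, covered a narrower range, with 89.7 and 79.6 in Mc, 137.2 and 209.3 in DP, 265.8 and 253.8 in DF, 48.8 and 69.8 in Mx, and 78.7 and 96.6 in ORS. DF, DP and Mc kept their order, with Mc inside the range of ORS. Here Mc over DF was -1.20 ± 0.20 (adjusted p = 0.00038), Mc over DP was -0.71 ± 0.20 (adjusted p = 0.0173), and DP over DF was -0.49 ± 0.20, which missed the threshold (adjusted p = 0.118, 95% interval -0.93 to -0.05). With no filter the adjusted p-values were 0.00209 for Mc over DF and 0.0297 for Mc over DP. The call of Mc over DP was lost with arrays rescaled to equal medians (adjusted p = 0.106), without DP replicate 2 (0.208), without Mc replicate 1 (0.0592) and without Mc replicate 2 (0.105). The remaining probe-set, 1453997_a_at, reached at most 31.3, in DF replicate 1.

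Nes lies at chr3:87971093-87980451 on the plus strand. Its window, shown for comparison with that of Ngfr, held 2 GC boxes in capitals and 58.7% G and C.
Nes, chr3:87970843-87971142, plus strand: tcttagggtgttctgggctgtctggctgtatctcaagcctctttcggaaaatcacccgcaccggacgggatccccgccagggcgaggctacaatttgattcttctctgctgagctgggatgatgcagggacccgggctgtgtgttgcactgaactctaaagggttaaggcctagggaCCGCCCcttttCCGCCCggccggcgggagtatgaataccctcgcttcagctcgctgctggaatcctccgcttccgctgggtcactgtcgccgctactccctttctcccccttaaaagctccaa
None of the windows of Pmp22, Ngfr, Nes and Gfap held the TATA box, the SOX core or the EGR core in these letters, which 13.6%, 18.7% and 5.55% of all windows held.

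Gfap was low throughout. Probe-set 1426508_at lay between 13.0 and 93.0 over the 10 arrays, with its highest signal in DP replicate 2, and 1426509_s_at between 3.7 and 26.1. Neither reached 200 on any array, and with no filter no difference between Mc, DP and DF passed the test for either. Signal at this level cannot be told from background here, so no order of the populations is given for Gfap (chr11:102887336-102897200).

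**Figure D3:**
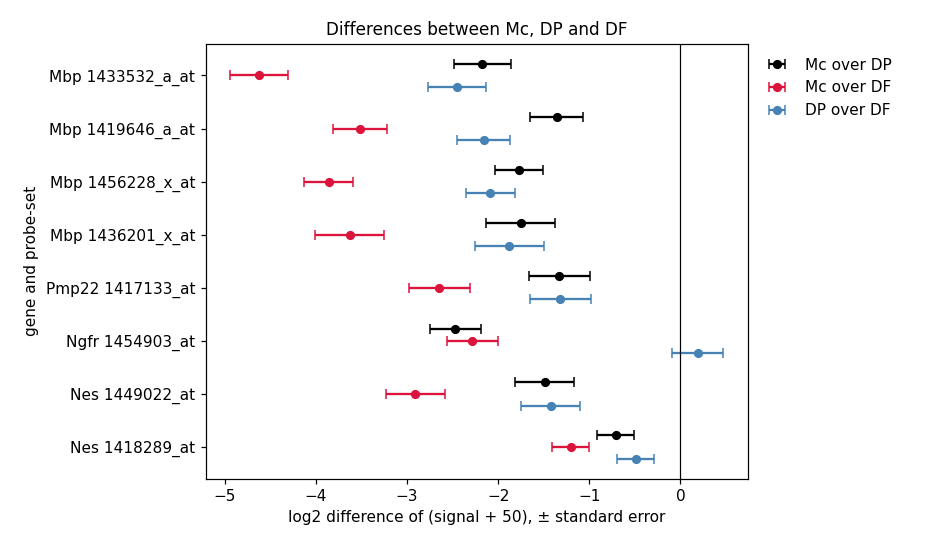
Log2 difference of (signal + 50) between Mc, DP and DF for the 8 tested probe-sets (vertical axis), with bars for ± 1 standard error of the limma fit. All differences lie left of 0, where the first population named is lower, except that of Ngfr for DP over DF at 0.19.

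Over all members, Mc over DP gave 8 of the 8 tested probe-sets lower, where 19.4% of all tested probe-sets were called lower and 11.1% higher. Mc over DF gave 8 lower, beside 24.3% lower and 12% higher. DP over DF gave 6 lower, 4 for Mbp and 1 each for Pmp22 and Nes, beside 11.5% lower and 7.49% higher. The filter had favoured these directions, since none of the 8 passed through Mc and the 4 for Mbp passed through DF alone. These 4 measure 1 gene, and from the filtered counts nothing is read. With all 17 probe-sets and no filter, 9 were lower for Mc over DP (10.9% of 22626 probe-sets), 11 for Mc over DF (14.8%) and 6 for DP over DF (5.67%), and none was higher in these 3 comparisons. Without DP replicate 2, 4 of the 8 were lower for Mc over DP, and without DP replicate 1, 3 were lower for DP over DF. The median log2 difference of the 17 was -0.75, -1.82 and -0.49 in the same order, beside -0.09, -0.09 and -0.00139 over all probe-sets. The comparisons share arrays, so these counts are not separate pieces of evidence.

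Against the epithelium, the filter had selected the tested probe-sets for signal in DF or DP, and 8 of 8 were higher for DF over Mx (31.2% of all tested probe-sets were), DF over ORS (19.5%), DP over Mx (33.1%) and DP over ORS (19.8%), from which nothing is read. With no filter, 11 of the 17 were higher for DF over Mx (22.3% of all probe-sets) and 11 for DF over ORS (13%), and 10 for DP over Mx (23.3%) and 10 for DP over ORS (12.9%). With the filter, 1 of the 8 was higher in Mc than in Mx, for Pmp22 (24.1% of all tested probe-sets). For Mc over ORS 1 of the 8 was lower, for Ngfr (25.2%), a call that was lost with no filter. None was called between Mx and ORS, where 19.4% of all tested probe-sets were called in either direction. No probe-set of the 17 reached 200 in both arrays of Mc, Mx or ORS. In DP 3 did, 1 each for Pmp22, Ngfr and Nes.

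The other myelin genes on the array moved in part with Mbp. Of 18 listed, 14 were named by the annotation, 8 of which had their highest mean in DF, and 4 were tested. Of these 4, 3 fell in Mc relative to DP and to DF, and in DP relative to DF, with medians of -1.30, -2.34 and -0.81, beside -0.09, -0.14 and -0.05 over all tested probe-sets. In the same order, 19.4%, 24.3% and 11.5% of all tested probe-sets were called lower. None of the 4 passed the filter through Mc, so lower signal in Mc was favoured. With no filter, 7 of the 14 were lower and 1 higher for Mc over DF, with a median of -0.79. Over all 22626 probe-sets 14.8% were lower and 1332 were higher in that comparison. For Mc over DP, 3 of the 14 were lower and 1 higher with no filter, with a median of only -0.16 (10.9% lower and 1022 higher over all). DP over DF gave 4 lower and none higher, with a median of -0.62 (5.67% lower and 877 higher over all).

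Cnp, which encodes an enzyme of non-compact myelin, gave 139.9 and 104.3 in Mc, 266.6 and 592.8 in DP, 1042.3 and 963.5 in DF, 16.2 and 4.2 in Mx, and 72.1 and 98.1 in ORS. Its 2 DP arrays were apart by 2.22 times, with replicate 2 higher as for Mbp. Cadm4, an adhesion protein that Schwann cells use to bind axons, was at 35.3 and 42.5 in Mc, 138.2 and 172.5 in DP and 392.9 and 261.2 in DF, and fell by 0.86 ± 0.21 in DP relative to DF (adjusted p = 0.0116). It passed the filter through DF alone, so a fall in DP was favoured by the selection. Cd9, a tetraspanin of many cell types, fell in Mc with 89.2 and 112.1, against 1327.7 and 1594.6 in DF, but its highest signals were epithelial, at 2840.1 and 2573.9 in ORS. Fa2h, which makes hydroxylated myelin lipids and is also active in skin, reached 200 in both arrays of ORS alone, at 242.6 and 474.1. DF over ORS was -0.79 ± 0.25 for it (adjusted p = 0.0265), a direction that passing the filter through ORS alone favoured.

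**Figure D4:**
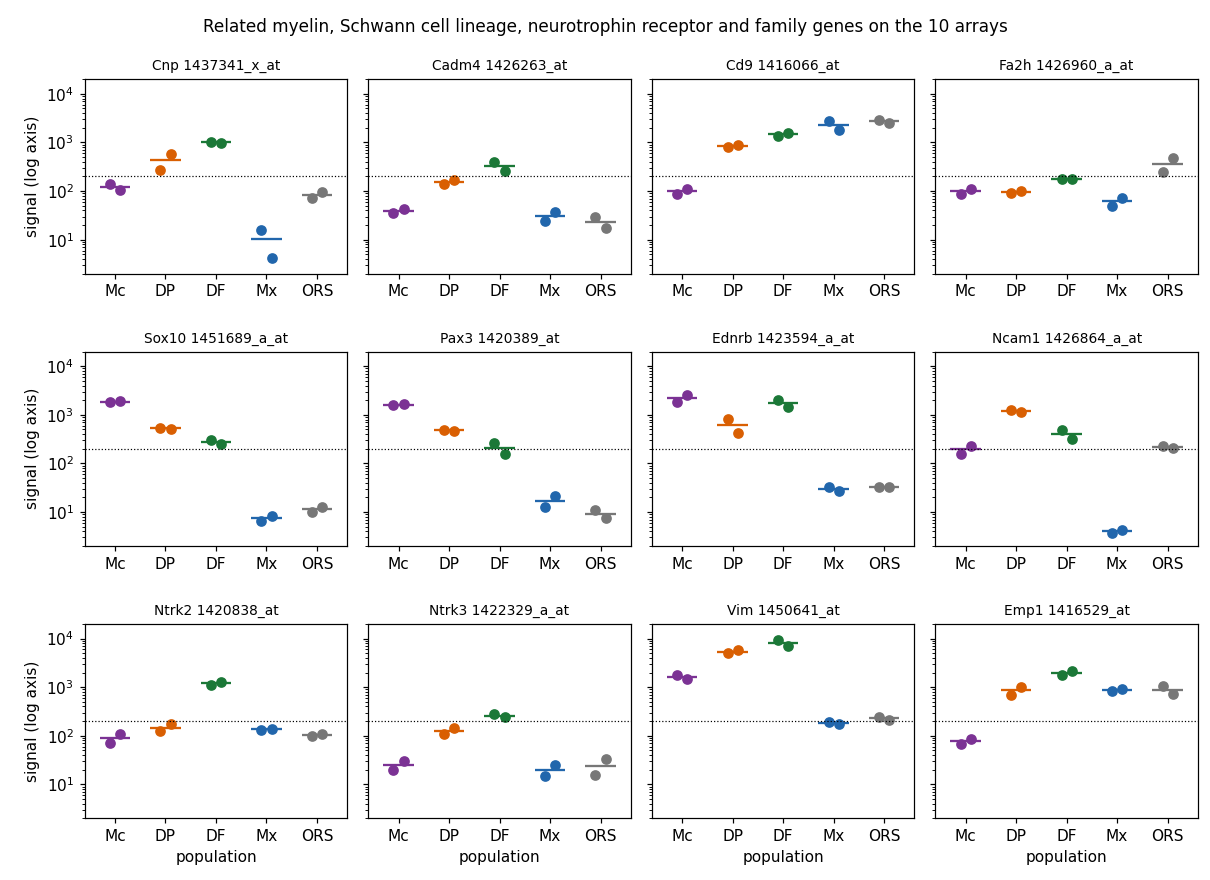
Signal (log axis) of 12 related genes on each of the 10 arrays, with populations along the horizontal axis, 1 point per array, a bar at the mean of the 2 arrays and a dotted line at a signal of 200. The order of Mbp, with DF above DP above Mc, recurs in Cnp, Cadm4, Cd9, Ntrk2, Ntrk3, Vim and Emp1, though Cd9 is highest in ORS. Sox10 and Pax3 run the opposite way, with both Mc arrays above those of all other populations.

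The genes of the Schwann cell lineage and its regulators did not share 1 direction. Of the 19 tested, 6 were higher and 10 lower in Mc over DP, 5 were higher and 11 lower in Mc over DF, and 6 were higher and 3 lower in DP over DF, with medians of -0.85, -0.73 and 0.17. Over all tested probe-sets the shares were 11.1% higher and 19.4% lower, 12% higher and 24.3% lower, and 7.49% higher and 11.5% lower in the same comparisons. Sox10, the transcription factor that Schwann cells and melanocytes both need, gave 1835.2 and 1894.1 in Mc, 537.2 and 517.8 in DP, 306.7 and 255.8 in DF, and 6.7 to 12.6 in the epithelium. It rose in Mc relative to DF by 2.54 ± 0.17 (adjusted p = 1.46e-07), the reverse of the order of Mbp. Pax3, an early neural crest and melanocyte factor, had 1575.4 and 1633.1 in Mc, 494.6 and 459.6 in DP and 265.3 and 154.0 in DF.

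Ednrb, the endothelin receptor of neural crest cells, which vessels also express, gave 1804.2 and 2581.7 in Mc, 831.6 and 416.1 in DP, and 1975.9 and 1469.3 in DF. Mc and DF overlapped, and both lay above DP. Ncam1, an adhesion molecule of non-myelinating Schwann cells, had 158.4 and 230.0 in Mc, 1259.5 and 1142.1 in DP, and 495.7 and 313.5 in DF, and rose in DP relative to DF by 1.49 ± 0.22 (adjusted p = 0.000373). S100b, a calcium-binding protein by which Schwann cells are often stained, was named after its values were seen because it took the same course, with 29.3 and 34.6 in Mc, 247.8 and 276.7 in DP, and 64.4 and 69.1 in DF. Gap43 and Dhh of the same list, also named after their values were seen, were instead higher in DF than in DP. Gap43 had 165.7 and 197.4 in DP and 458.2 and 296.5 in DF, and Dhh 60.9 and 109.7 in DP and 161.6 and 176.2 in DF. Dhh lay below 200 on all arrays and was not tested with the filter, so its order is not firm.

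Of the genes that work with Ngfr, 10 of 15 listed were named on the array and 6 were tested. In Mc over DP 1 was higher and 3 were lower (11.1% and 19.4% of all tested probe-sets), in Mc over DF 1 was higher and 4 were lower (12% and 24.3%), and in DP over DF none was higher and 2 were lower (7.49% and 11.5%). Ntrk2, the receptor of brain-derived neurotrophic factor, had 70.2 and 111.1 in Mc, 122.9 and 172.2 in DP, and 1128.2 and 1300.7 in DF, and fell by 2.69 ± 0.20 in DP relative to DF (adjusted p = 1.24e-06). Ntrk2 passed the filter through DF alone, which favoured this direction. Ntrk3, the receptor of neurotrophin 3, had 19.5 and 30.7 in Mc, 107.4 and 144.4 in DP, and 276.6 and 241.7 in DF. Maged1, an adaptor that binds p75, had 491.2 and 480.3 in Mc, 1156.1 and 987.8 in DP, and 1035.0 and 796.9 in DF, so that DP and DF overlapped as they did for Ngfr. Sorcs2, a sorting receptor that can pair with p75, did not reach the bound in both arrays of any population, with 258.5 and 182.3 in DF.

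Among intermediate filament genes beside Nes and Gfap, 2 of the 8 on the array were tested. Vim, the filament protein of mesenchymal cells and the partner with which nestin assembles, gave 1746.6 and 1469.0 in Mc, 4959.5 and 5793.6 in DP, 9200.1 and 7175.3 in DF, and 178.3 to 246.1 in the epithelium. Plec, a linker of filaments to junctions, had 166.7 and 275.7 in Mc, 772.7 and 952.5 in DP, and 1666.0 and 1834.8 in DF. The neuronal filament genes Ina and Prph reached at most 113.0 and 94.5. Both tested genes fell in Mc relative to DP and DF, and 1 of them, Plec, fell in DP relative to DF. Of all tested probe-sets, 19.4% were lower for Mc over DP, 24.3% for Mc over DF and 11.5% for DP over DF. With no filter, 2, 2 and 1 of the 8 were lower in the same order and none was higher. The medians of the 8 were then -0.18, -0.13 and 0.005, so the list as a whole did not fall as these 2 genes did.

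The relatives of Pmp22 had orders of their own. Of 5 tested, 3 were lower and none higher in Mc over DP (19.4% and 11.1% of all tested probe-sets), 3 were lower and 1 higher in Mc over DF (24.3% and 12%), and 1 was lower and 1 higher in DP over DF (11.5% and 7.49%). Emp1, an epithelial membrane protein, had 67.3 and 85.6 in Mc, 688.4 and 1024.6 in DP, and 1799.6 and 2187.8 in DF, in the order of Pmp22, but with 731.6 to 1032.2 in the epithelium. Emp3 was highest in Mc, at 1371.2 and 1987.8. Emp2 and Perp were highest in the epithelium, Emp2 with 1822.8 to 2267.8 and Perp with 2626.1 to 3137.8.

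Of 11 genes of astrocytes and oligodendrocytes 3 were tested, all of them genes that other cell types use as well. Cspg4, the NG2 proteoglycan of oligodendrocyte precursors and pericytes, had 52.1 and 81.1 in Mc, 218.1 and 332.4 in DP, 710.9 and 726.5 in DF, and 716.5 and 973.1 in ORS. Glul, glutamine synthetase, had 881.4 and 733.8 in Mc, 393.0 and 338.8 in DP and 162.6 and 187.0 in DF. Gja1, the gap junction protein connexin 43, was highest in the epithelium, with 4435.6 to 4603.5, and Slc1a3, a glutamate transporter, reached at most 183.2, in ORS replicate 2.

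Markers of other cell types also differed between the populations. The summed signal of 8 endothelial markers was 347.3 and 344.0 in Mc, 616.4 and 628.7 in DP, and 5262.4 and 4076.2 in DF, with Pecam1 at 214.3 and 174.6 in DF and at most 32.4 elsewhere. The sum of 8 markers of pericytes and smooth muscle was 357.2 and 356.0 in Mc, 3978.4 and 6628.9 in DP, and 21864.3 and 24972.5 in DF, with 7 of the 8 at 200 or more in both DF arrays. In ORS, where Mbp, Pmp22 and Nes were low, this sum was 4296.1 and 5648.7. Only 4 of the 8, Acta2, Tagln, Cspg4 and Mcam, reached 200 in both ORS arrays. The others, Rgs5, Pdgfrb, Myh11 and Cnn1, lay at 39.7 or less there, so the sum in ORS had another makeup than that in DF. The sum of 6 fibroblast markers was 3517.5 and 2261.1 in Mc, 16910.5 and 16560.6 in DP, and 23939.0 and 23595.1 in DF. In Mc, 5 of the 6 were lower than in DP and than in DF, beside 19.4% and 24.3% of all tested probe-sets. Within DP the pericyte gene Rgs5 was 2.12 times higher in replicate 2, the replicate in which Mbp was also higher. Within DF it was level, with replicate 1 at 1.01 times replicate 2, whereas Mbp was higher in DF replicate 1. Vessel walls are a known site of nestin, and CD34, which was used to deplete DP and DF, is carried by dermal endothelial cells. The part of vessel cells and fibroblasts in the Nes, Pmp22 and Mbp signals of DF and DP was not tested.

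The sum of 8 melanocyte markers was 37713.6 and 38311.8 in Mc, 26948.0 and 16759.6 in DP, and 13638.9 and 4114.0 in DF, with 8, 7 and 5 of the 8 markers at 200 or more in both arrays of these populations. DF replicate 1, the higher for Mbp, was also the higher for the melanocyte gene Dct, by 3.39 times, whereas in DP it was replicate 1 that was higher for Dct and replicate 2 for Mbp. Mbp was at 22.1 to 23.8 in Mc itself, where these markers were highest. The part of melanocytes in the signals of DP and DF was not tested. The 8 neuronal markers summed to 494.3 and 381.4 in DF, with Stmn2 as the 1 gene at 200 or more in both arrays, and the red cell gene Alas2 was at 3461.6 and 4266.2 in DF and at most 7.8 on the other arrays. No marker of skeletal muscle or immune cells reached 200 in both arrays of any population.

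The genes most like each of the 4 tested genes in log2 of (signal + 50) over the 10 arrays were taken by Pearson's r between its brightest probe-set and every tested probe-set of another gene. For Mbp they were Stmn2, a neuronal tubulin-binding protein (r = 0.996), the secreted chemoattractant Rarres2 (0.995), Dpep1 (0.994), Dab2 (0.991) and Fgl2 (0.991). For Pmp22 they were Fam114a1 (r = 0.989), Mgat1 (0.984), Jdp2 (0.982), Kank2 (0.981) and Bin1 (0.980). For Nes they were Isca1 (r = 0.994), the collagen-modifying genes Crtap (0.983) and Colgalt1 (0.983), Kdelr2 (0.980) and the collagen gene Col1a1 (0.978). For Ngfr they were Pdlim4 (r = 0.974), the lipoprotein receptor Lrp1 (0.968), Gpr153 (0.964), Samhd1 (0.955) and Ccnt1 (0.953), of which Lrp1 had a mean of 62.5 in Mc, 1448 in DP and 959.7 in DF. The 10 points share their libraries and fall into 5 populations, so these values describe a shared order of populations and carry no test.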

How the data were processed

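RNA of 5 cell populations, sorted by FACS from pooled skins of K14-H2BGFP/Lef1-RFP mice at postnatal day 4, was amplified in 1 round from oligo(dT)-T7 primers and hybridised to Affymetrix MOE430A arrays, 2 per population. The authors computed a linear signal intensity per probe-set with MAS 5.0 and scaled each array to a common target, and these deposited intensity values were used as given. Chip lot and fluidics station were read from the array record files. Per the labels, replicates of a population were separate samples, and the study describes them as independent.

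Probe-sets were named from the platform annotation, which gave 1 gene for 20380, several for 691 and none for 1555, and positions from GRCm38. Control probe-sets (64) were left out. log2(signal + 50) was fitted with limma 3.58.1 in R 4.3.3, with a mean per population over all 10 arrays (5 residual degrees of freedom). Benjamini-Hochberg adjustment ran over the 8054 probe-sets with a signal of 200 or more on both arrays of some population, with a threshold of 0.05. The fit was tested on simulated data. Sequences came from the RefSeq promoter table for GRCm38. The number of arrays limits the precision, and detection calls were not used here. The text names all 5 genes, the 4 genes of each related list with the largest range of population means at the brightest probe-set, and the 5 genes most like each gene that passed the filter. S100b, Gap43 and Dhh were named outside this rule, after their values were seen. Members and lists were chosen with earlier results of these data known. Alternatives were the pseudocount (1 and 16), no filter, a bound of 100, quantile normalization, equal medians, blocks, only the 2 populations, and leaving out each array.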

Additional observations from a re-analysis of the deposited data

How the results depend on the processing

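The 42 values of single probe-sets between populations were recomputed under 20 alternatives, of which 816 results kept their direction and their side of the threshold, 23 lost their call, none gained one and 1 reversed, Ngfr 1454903_at for DP over DF without DF replicate 2, at -0.15, against 0.53 without DF replicate 1. The fluidics station block and the values within chip lots were chosen after seeing the data. Leaving out 1 array at a time gave 4 to 8 called probe-sets for Mc over DP (4 without DP replicate 2), 3 to 6 for DP over DF (3 without DP replicate 1, 4 without DF replicate 1), 1 to 2 for Mc over Mx (2 without Mx replicate 2, ORS replicate 1 or ORS replicate 2), 0 to 1 for Mc over ORS (0 without Mc replicate 2, and Pmp22 in place of Ngfr without ORS replicate 2 or Mc replicate 1) and 0 to 1 for Mx over ORS (1 without ORS replicate 1, Mc replicate 1 or Mc replicate 2). The single call of Mc over Mx became 2 with a pseudocount of 16, quantile normalization, equal medians or only the 2 populations, and 3 with a pseudocount of 1. That of Mc over ORS became 2 with a pseudocount of 1, quantile normalization, equal medians, the replicate block or the chip lot block, and 0 with no filter. For Mx over ORS, 1 call was made with a pseudocount of 16 or 1, the replicate block or the fluidics station block. The labels do not say that a replicate number marks a shared sort, and it was not taken to pair the samples. The deviations of same-numbered arrays correlated between -0.05 and 0.34, highest for DP with DF (0.27) and for Mx with ORS (0.34). In the study, RFP divided DP from DF after the same depletion, and GFP level divided Mx from ORS. Whether same-numbered arrays of these pairs shared a sort is not known from the labels. The replicate block moved no other count of calls. Rescaling to equal medians moved an array by -0.37 to 0.50 on the log2 scale. The cause of these changes was not tested. With 2 arrays a population and no detection calls used here, signals below 200 have no firm order.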
